A study of Homo sapiens with 6 samples.

Results

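The genes described here carry the bile acid signal from the nuclear receptor FXR to the hormone FGF19 and its receptor, together with transporters and enzymes that make, conjugate and move bile acids: FGF19, FGFR4, SLC51A, SLC51B, NR0B2, NR1H4, CYP7A1, CYP27A1, ABCB11 and BAAT. They were 10 of the 58735 genes in the expression table, found by gene name. The members were chosen by their measured FPKM difference between the 2 groups of libraries, already known from these data, so their values are given as a description and without a p-value. A filter of at least 1 FPKM (fragments per kilobase of gene, scaled to library size, so a level per length) in at least 3 libraries kept 13074 genes and 8 of these 10. ABCB11 and CYP7A1 lay below it.

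The study measured RNA in Hep-G2, an established line from a human liver tumour that keeps many hepatocyte functions, to find which genes change when CLGN, an endoplasmic reticulum chaperone, is depleted. The sh-NC group (3 libraries) carried a lentiviral control hairpin and the sh-CLGN group (3 libraries) a lentiviral hairpin against CLGN. Both were Hep-G2 cells selected with puromycin after transduction, with the genotypes WT and CLGN knock down, and all 6 libraries shared the batch label 0DAY. Each group carried 1 hairpin sequence, so the depletion of CLGN and any other action of that hairpin cannot be told apart. The labels do not say whether libraries of a group came from separate cultures. Each p-value sets the group difference against the spread between these libraries, partly shared across genes, and that spread may be technical.

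Bile acids bind FXR, encoded by NR1H4, which pairs with RXR on DNA and turns on NR0B2 (the corepressor SHP), the bile salt export pump ABCB11, both subunits of the basolateral exporter OST (SLC51A and SLC51B) and FGF19. FGF19 is made mainly in the ileum of adults, travels to the liver, binds FGFR4 together with its co-receptor KLB, and through ERK signalling represses CYP7A1, the rate-limiting enzyme of bile acid synthesis. Liver tumours and their cell lines can make FGF19 themselves.

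FXR with RXR is known for binding an inverted repeat with a spacer of 1 base (IR-1), here taken as AGGTCANTGACCT and searched for, with mismatches counted outside the N, in the 250 bases before each RefSeq start site (GRCh38.p14). The motif reads the same on both strands. An entry was found for 7 of the 10 genes. FGF19, NR0B2 and CYP7A1 are named only. The windows of SLC51B and ABCB11, the genes with the largest differences down and up, and of SLC51A, the partner of SLC51B, are shown 5′ to 3′ with the closest match in capitals.
SLC51B (chr15:65045137-65045386, plus strand): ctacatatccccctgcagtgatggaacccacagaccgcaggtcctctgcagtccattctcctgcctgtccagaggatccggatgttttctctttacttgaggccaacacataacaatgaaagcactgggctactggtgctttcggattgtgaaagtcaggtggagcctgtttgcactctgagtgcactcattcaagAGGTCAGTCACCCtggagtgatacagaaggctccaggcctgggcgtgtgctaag
SLC51A (chr3:196216284-196216533, plus strand): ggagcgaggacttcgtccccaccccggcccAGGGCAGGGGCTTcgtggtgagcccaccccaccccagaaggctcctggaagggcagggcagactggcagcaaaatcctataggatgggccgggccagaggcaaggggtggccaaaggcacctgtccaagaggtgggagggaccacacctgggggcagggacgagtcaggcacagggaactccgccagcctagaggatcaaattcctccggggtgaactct
ABCB11 (chr2:169031325-169031574, minus strand): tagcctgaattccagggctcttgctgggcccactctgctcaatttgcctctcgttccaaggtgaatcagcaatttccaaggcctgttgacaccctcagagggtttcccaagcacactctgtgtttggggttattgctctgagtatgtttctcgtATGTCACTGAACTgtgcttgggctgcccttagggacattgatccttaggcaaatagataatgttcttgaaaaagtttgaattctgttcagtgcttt
The SLC51B window held a match with 2 mismatches at bases -54 to -42 from the start, and its first 6 letters are the whole 6-base repeat unit AGGTCA. The ABCB11 window held a match with 2 mismatches at bases -96 to -84. A match that close was present in 0.945% of 35116 promoter windows. In SLC51A the closest match had 4 mismatches, a level reached in 46.5% of windows, and CYP27A1 had no match closer than 5. The 6-base repeat unit AGGTCA on either strand was present in 12.1% of windows, among them SLC51B, NR1H4 and 1 of the 2 entries of BAAT, and the match in SLC51B overlaps its 6-base repeat unit. These letters describe the windows: binding was not measured, and the closest match by letters need not be the element through which FXR acts.

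Recovered reads per library ran from 14955816 to 16244639. CLGN itself, the target of the hairpin, was at 24.1, 21.0 and 26.1 FPKM in the sh-NC libraries and at 9.48, 8.88 and 8.60 in the sh-CLGN libraries, 37.8% of the control level (log2 fold change -1.31, SE 0.081 and limma adjusted p = 8.35e-06). Libraries within a group correlated at 0.994 to 0.996 on the log2(FPKM + 1) scale and libraries of different groups at 0.958 to 0.963, both across genes. A few other properties separated the groups. Mitochondrial genes took 3.25 to 4.02% of reads of the sh-NC libraries but 5.49 to 5.80% of those of sh-CLGN, genes with at least 1 read numbered 23578 to 23793 and 26814 to 27006, and the library size behind the deposited FPKM was 0.933 to 0.953 of the recovered reads in sh-NC but 1.07 to 1.08 in sh-CLGN. Over the tested genes, log2 fold changes were lower at higher GC content (Spearman rho -0.33). Under other scalings the log2 differences of single genes shifted upward, by a median of 0.17 with recovered reads, 0.12 with TPM and 0.12 with a GC trend removed. The part of these properties in the differences below was not tested beyond these other scalings.

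FGF19, FGFR4, NR0B2 and SLC51B were each lower by more than 1 on the log2(FPKM + 1) scale in the sh-CLGN libraries, while NR1H4, SLC51A and BAAT were lower by less, CYP27A1 was close to level, ABCB11 was higher at a very low level and CYP7A1 had no reads. In counts, 4 of the 8 members that passed the filter met both thresholds used here (Benjamini-Hochberg adjusted p up to 0.05, and a log2 fold change of 1 or more in size), all lower, where 6.28% of all tested genes met it and 3.19% met it with sh-CLGN lower. By adjusted p alone 7 of the 8 were called, all lower, while 65.8% of all tested genes were called, 39.0% lower. The groups did not overlap in any of the 8, with sh-CLGN lower, while they did not overlap in 70.2% of all tested genes, 41.5% with sh-CLGN lower. The median difference over the 8 was -0.78, and over all tested genes -0.08. Because the same contrast chose these genes, these counts describe them and support nothing further.

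**Figure D1:**
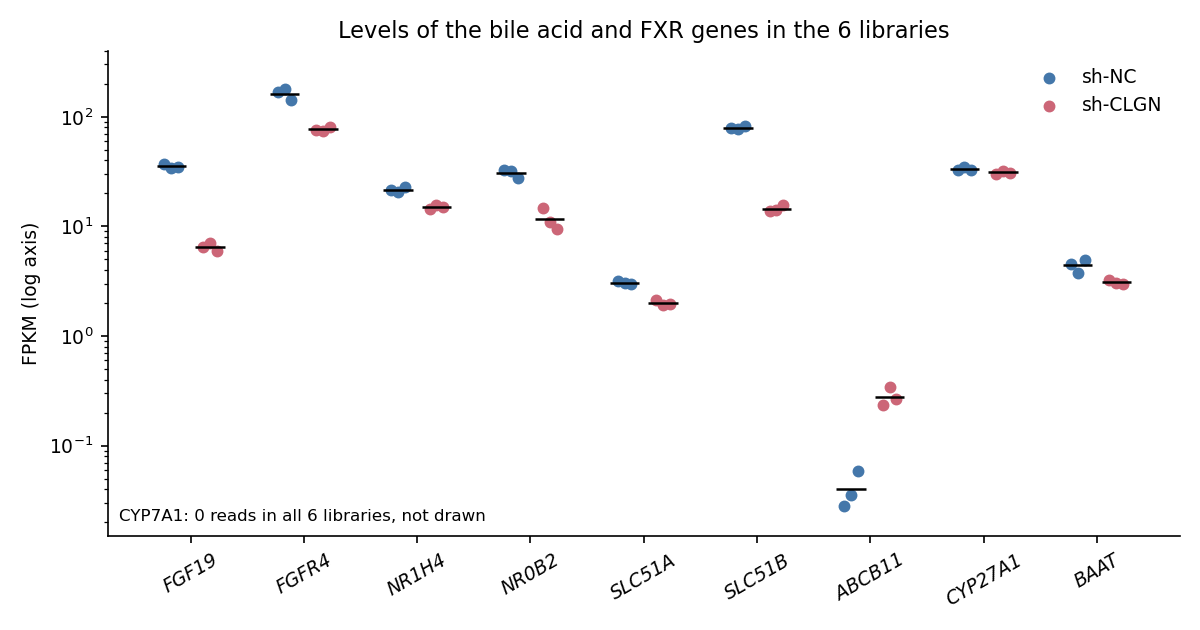
FPKM (log axis) of 9 of the 10 genes in each of the 6 libraries, with sh-NC in blue, sh-CLGN in red and a bar at each group's mean. FGF19 and SLC51B show the widest gaps downward, ABCB11 lies below 1 FPKM throughout and is higher in sh-CLGN, and CYP7A1, with 0 reads, is not drawn.

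Among the ligand and its receptor, FGF19 (ENSG00000162344, chr11:69698232-69704642, minus strand) encodes the hormone that signals bile acid return to the liver. It stood at 36.7, 34.3 and 35.0 FPKM in the sh-NC libraries and at 6.55, 7.01 and 5.97 FPKM in the sh-CLGN libraries. The libraries of each group lay close together and the groups did not overlap. The means were 35.3 ± 1.24 and 6.51 ± 0.517 FPKM (SD, n = 3 each), so the sh-CLGN level was 18.4% of the control level and the difference was -2.28 (SE 0.064) on the log2(FPKM + 1) scale. These values rested on 236 to 1324 reads per library, and 3 reads of FGF19 correspond to 0.0723 to 0.0879 FPKM, so counting error was small beside the gap. In sh-NC the FGF19 level was above that of 89.3% of tested genes.

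FGFR4 (ENSG00000160867, chr5:177086886-177098144, plus strand) encodes the tyrosine kinase receptor for FGF19 on hepatocytes. It was the most abundant of the 10, at 166, 177 and 142 FPKM in sh-NC and at 75.6, 74.3 and 81.1 FPKM in sh-CLGN. The sh-NC libraries spread more than the sh-CLGN libraries, and the groups did not overlap. Mean levels were 162 ± 18.3 and 77.0 ± 3.62 FPKM, leaving 47.6% of the control level, and the difference was -1.06 (SE 0.084). That value sits at the edge of the threshold of 1: it was -0.94 with TPM, -0.86 with read totals, -0.75 after quantile normalization, -0.76 after GC correction and -0.99 without sh-NC 2, and 3 rather than 4 members then met both thresholds.

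KLB, the co-receptor that FGF19 needs, fell from 30.2 ± 1.24 to 18.7 ± 0.0716 FPKM (log2 fold change -0.66, SE 0.048 and limma adjusted p = 1.68e-05). The level of FGFR4 relative to KLB, both per length, was 5.78, 5.75 and 4.57 across the sh-NC libraries, but 4.03, 3.99 and 4.34 across the sh-CLGN libraries. The lowest sh-NC ratio lay just above the highest sh-CLGN ratio. Relative to FGFR3, another FGF receptor of these cells, the FGFR4 level was 1.92 ± 0.107 in sh-NC and 1.26 ± 0.0455 in sh-CLGN, with no overlap between the groups, so FGFR4 was lower by more than FGFR3.

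Among the nuclear receptors, NR1H4 (ENSG00000012504, chr12:100473708-100564413, plus strand), which encodes FXR, was at 21.4, 20.7 and 22.9 FPKM in sh-NC and at 14.6, 15.7 and 14.9 FPKM in sh-CLGN. The groups did not overlap and neither spread widely. The means were 21.7 ± 1.13 and 15.1 ± 0.577 FPKM, 69.5% of the control level, with a difference of -0.50 (SE 0.056). Over all 15 alternative settings the difference stayed negative and ran from -0.61 to -0.28.

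NR0B2 (ENSG00000131910, chr1:26911489-26913966, minus strand), which encodes SHP, was at 32.6, 32.2 and 27.4 FPKM in sh-NC and at 14.7, 11.1 and 9.54 FPKM in sh-CLGN. It had the widest relative spread within sh-CLGN among the 8 members, with sh-CLGN 1 highest, yet the groups did not overlap. The means were 30.7 ± 2.86 and 11.8 ± 2.67 FPKM, 38.3% of the control level, with a difference of -1.33 (SE 0.14). Without sh-CLGN 1 the difference was -1.49 and without sh-CLGN 3 it was -1.20. NR0B2 lies wholly inside NUDC on the opposite strand but shares no exon base with it, and NUDC was at 77.4 and 77.0 FPKM. NR0B2 was lower by more than its activator, since the ratio of NR0B2 to NR1H4 was 1.43 ± 0.198 in sh-NC and 0.786 ± 0.199 in sh-CLGN.

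SLC51A and SLC51B encode the 2 subunits of OST, which exports bile acids across the basolateral membrane and works only when both are present. SLC51B (ENSG00000186198, chr15:65045370-65053396, plus strand), whose promoter window is printed above, was at 79.3, 77.4 and 81.5 FPKM in sh-NC and at 13.9, 14.0 and 15.7 FPKM in sh-CLGN. No library stood apart from its group, and the groups did not overlap. The means were 79.4 ± 2.08 and 14.5 ± 1.01 FPKM, 18.3% of the control level, and the difference was -2.37 (SE 0.058), the largest of the 8.

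SLC51A (ENSG00000163959, chr3:196211487-196243178, plus strand) was at 3.20, 3.02 and 3.004 FPKM in sh-NC and at 2.14, 1.90 and 1.95 FPKM in sh-CLGN. Its levels were far below those of SLC51B, and the groups did not overlap. The means were 3.07 ± 0.108 and 1.998 ± 0.124 FPKM, 65.0% of the control level, with a difference of -0.44 (SE 0.07). The level of SLC51B relative to SLC51A was 24.8, 25.7 and 27.1 across the sh-NC libraries, but 6.48, 7.37 and 8.03 across the sh-CLGN libraries, so the 2 subunits differed unequally. Whether reads were counted by strand is not given in the sources used here. Of SLC51A's 5293 exon bases 389 are also exon of PCYT1A on the opposite strand, whose mean was 15.3 and 9.78 FPKM, and of SLC51B's 940 exon bases 60 are also exon of RASL12, at 7.97 and 3.32 FPKM.

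ABCB11 (ENSG00000073734, chr2:168915498-169031324, minus strand) encodes the canalicular pump that secretes bile salts and is a textbook FXR target. The sh-NC libraries held 3, 4 and 7 of its reads and the sh-CLGN libraries 31, 43 and 33, or 0.0279, 0.0355 and 0.0586 FPKM against 0.237, 0.340 and 0.265 FPKM. Each sh-CLGN library was above each sh-NC library, opposite in direction to SLC51B and NR0B2. Summed reads were 14 and 107, a ratio of 6.80 at the deposited library sizes (95% interval 3.88 to 12.9, counting error only) and 7.78 by read totals. The level stayed below the filter of 1 FPKM in every library. Among 9013 genes below the filter with at least 10 reads, 72.7% were higher in sh-CLGN, the median log2 ratio was 0.64 and 7.47% had a ratio above that of ABCB11.

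Among the enzymes, CYP7A1, which starts the classic synthesis route, had 0 reads in all 6 libraries, which allows a level of up to 0.0599 to 0.0729 FPKM per library (3 reads), so no difference was detectable at this depth. CYP27A1 (ENSG00000135929, chr2:218781749-218815293, plus strand), which starts the alternative route in mitochondria, was at 33.0, 35.1 and 32.5 FPKM in sh-NC and at 30.4, 32.3 and 30.5 FPKM in sh-CLGN. The groups were separate by a margin smaller than the spread within either. The difference was -0.11 (SE 0.051) and its sign depended on the scaling, turning to 0.02 with TPM, 0.08 with read totals, 0.18 after quantile normalization and 0.14 after GC correction. By adjusted p alone CYP27A1 was not called as deposited, but was called higher after quantile normalization and after GC correction.

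BAAT (ENSG00000136881, chr9:101360417-101383519, minus strand), which joins bile acids to glycine or taurine, was at 4.50, 3.76 and 4.98 FPKM in sh-NC and at 3.25, 3.06 and 2.96 FPKM in sh-CLGN. The lowest sh-NC library lay close above the highest sh-CLGN library. The means were 4.41 ± 0.614 and 3.09 ± 0.148 FPKM, 70.0% of the control level, with a difference of -0.40 (SE 0.092) that ran from -0.52 to -0.25 over the 15 alternatives.

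**Figure D2:**
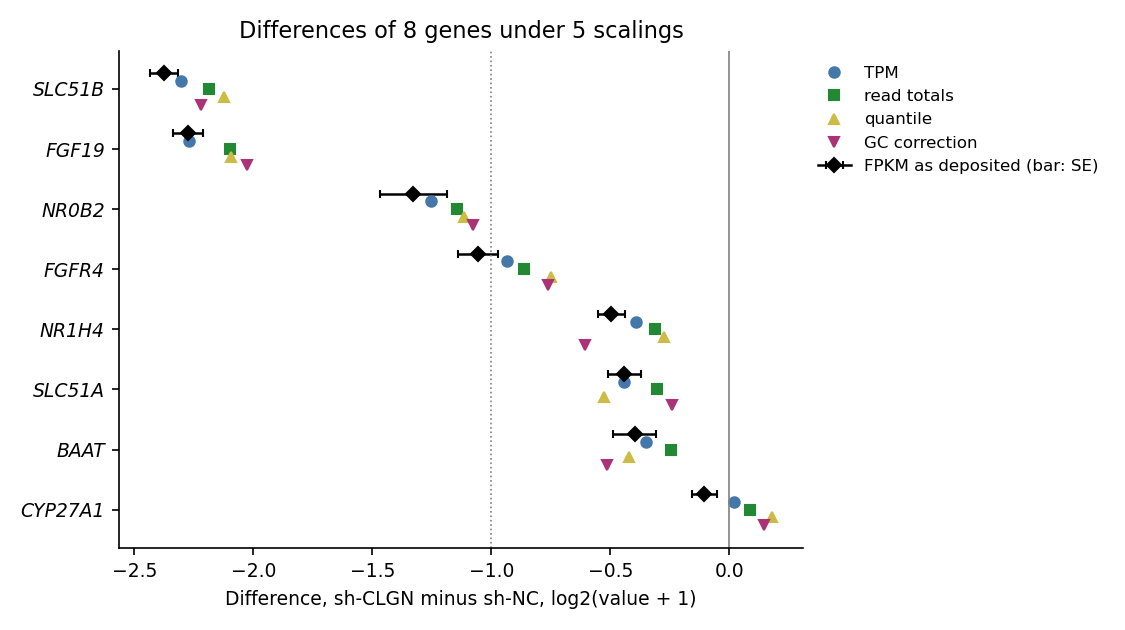
Difference between the groups (sh-CLGN minus sh-NC, log2 of value + 1) for the 8 genes that passed the filter, as deposited (black, bar: SE) and under 4 other scalings. SLC51B lies furthest from 0 and is followed by FGF19, NR0B2 and FGFR4 under all 5 scalings, FGFR4 crosses the dotted line at -1 under the other 4 scalings, and CYP27A1 changes sign under them.

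Of the 16 other genes of bile acid synthesis and conjugation, 10 were tested, of which 4 rose and 3 fell, with a median log2 fold change of 0.12. The background, here and for the lists below, was 26.7% higher and 39.0% lower among all tested genes. All lists were chosen with earlier results of these data known, so their counts are a description. ABCD3, a peroxisomal transporter that takes in the side-chain intermediates, rose from 5.34 ± 0.708 to 21.2 ± 0.815 FPKM (log2 fold change 1.82, SE 0.083 and limma adjusted p = 2.62e-06). SLC27A2, which activates intermediates to their CoA esters, fell from 11.6 ± 1.02 to 3.89 ± 0.186 FPKM (log2 fold change -1.36 and limma adjusted p = 4.74e-06), and ACOT8, a peroxisomal thioesterase, fell from 7.73 ± 1.42 to 4.21 ± 0.382 FPKM (log2 fold change -0.73 and limma adjusted p = 0.00102). CYP8B1, which sets the share of cholic acid, was below the filter with 1 to 10 reads per library.

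Of 16 other genes of bile acid and bile lipid transport, 10 were tested, of which 5 rose and 3 fell, with a median of 0.25. ABCC2, the conjugate export pump, rose from 10.3 ± 0.808 to 15.3 ± 0.283 FPKM (log2 fold change 0.52 and limma adjusted p = 0.000183), and ABCB4, the phospholipid flippase of bile, from 3.40 ± 0.29 to 4.58 ± 0.338 FPKM (0.34 and limma adjusted p = 0.00507). ABCG8, a subunit of the sterol exporter, was at 0.469 ± 0.0215 and 1.69 ± 0.0842 FPKM. It is counted among the 5 but passed the filter only through sh-CLGN, the group where it is high, so its call carries no weight. ABCG2, a broad efflux pump, rose from 4.03 ± 0.193 to 8.15 ± 0.551 FPKM and SLCO1A2, an uptake carrier, from 1.01 ± 0.134 to 2.22 ± 0.102 FPKM. The sh-NC libraries held SLCO1A2 at 1.15, 0.886 and 0.987 FPKM. SLCO1A2 is counted among the 5 but met the filter only with help from sh-CLGN, where it is high, so its call carries little weight. The basolateral exporter ABCC3 was at 3.51 ± 0.318 and 4.02 ± 0.152 FPKM, which did not pass the test (limma adjusted p = 0.092), though it did in 5 of the 15 alternatives. The bile acid uptake carrier SLC10A1 had 0 to 7 reads per library.

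Of 23 receptors and regulators around FXR, 20 were tested, of which 11 fell and 2 rose, with a median of -0.25, where 39.0% of all tested genes fell and 26.7% rose. By read totals 6 fell, and 8 fell both with TPM and after quantile normalization. After GC correction 7 fell and 4 rose, and without sh-CLGN 3 only 1 rose. The shares of all tested genes given here hold for the FPKM as deposited, not for these other settings. FOXA2, a transcription factor of hepatocyte identity, fell from 46.6 ± 3.10 to 23.2 ± 1.59 FPKM (log2 fold change -0.97 and limma adjusted p = 1.46e-05). NR1I2, the xenobiotic receptor PXR, rose from 1.13 ± 0.208 to 2.61 ± 0.323 FPKM (0.76 and limma adjusted p = 0.000405). Its sh-NC libraries were at 1.09, 1.35 and 0.937 FPKM. NR1I2 is counted among the 2 but met the filter only with help from sh-CLGN, where it is high, so its call carries little weight. The same holds for NR1I3, 1 of the 11, which met the filter only with help from sh-NC, where it is high. It was at 1.43, 1.45 and 1.23 FPKM in sh-NC and at 0.767, 0.941 and 1.05 FPKM in sh-CLGN. HNF4A was at 63.8 ± 3.05 and 51.7 ± 2.19 FPKM (-0.30 and limma adjusted p = 0.00185), a call lost with read totals, quantile normalization and GC correction. RXRA, the partner of FXR, was at 26.2 ± 2.09 and 23.6 ± 0.755 FPKM with overlapping libraries (-0.14 and limma adjusted p = 0.0874). The call of RXRA depended on the processing: higher after GC correction (0.13), but lower with voom (-0.15) and without sh-NC 3 (-0.21). NR5A2, which acts with SHP on CYP7A1, was at 7.98 ± 0.665 and 8.07 ± 0.448 FPKM.

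Of 17 other genes described as FXR targets, 14 were tested, of which 6 rose and 7 fell, so they did not move one way. ICAM1, an adhesion molecule, fell from 113 ± 5.13 to 42.5 ± 1.32 FPKM (log2 fold change -1.38 and limma adjusted p = 1.37e-06) and VLDLR, a lipoprotein receptor, from 4.05 ± 0.202 to 1.69 ± 0.0498 FPKM (-0.91 and limma adjusted p = 1.85e-05). PDK4, a kinase that restrains pyruvate oxidation, was at 0.250 ± 0.0313 and 1.28 ± 0.0621 FPKM. It is counted among the 6 but passed the filter only through sh-CLGN, where it is high, so its call carries no weight.

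On the receiving side of FGF19, 10 of 14 FGF receptors, co-receptors, hormones and adaptors were tested, of which 3 rose and 4 fell. FGFRL1, an FGF receptor without a kinase domain, fell from 31.6 ± 2.45 to 9.91 ± 0.928 FPKM (log2 fold change -1.58 and limma adjusted p = 3.88e-06). FRS2, the docking protein of FGF receptors, rose from 3.74 ± 0.332 to 8.81 ± 0.19 FPKM (1.05 and limma adjusted p = 9.18e-06). The median of this list was -0.03, so its genes lay on both sides of 0.

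All 12 ERK-responsive genes were tested, of which 11 fell and 1 rose, against 39.0% and 26.7% of all tested genes, and their median was -0.65. The list, with DUSP6 and EGR1 as anchors, was chosen with earlier results of these data known. Its count is a description and supports nothing further. FOS, 1 of the 11, passed the filter only through sh-NC. The immediate early transcription factor EGR1 was at 20.6, 19.2 and 17.8 FPKM in sh-NC and at 1.90, 2.53 and 2.55 FPKM in sh-CLGN, with no overlap (log2 fold change -2.61, SE 0.094 and limma adjusted p = 1.32e-06). The feedback inhibitors followed, with the phosphatase DUSP6 falling from 31.5 ± 1.65 to 13.5 ± 0.722 FPKM (-1.16 and limma adjusted p = 4.25e-06) and SPRY4 from 14.0 ± 0.656 to 4.72 ± 0.218 FPKM (-1.40 and limma adjusted p = 2.07e-06). The 1 gene that rose was SPRED1, at a log2 fold change of 0.26, a call lost without sh-NC 1, sh-NC 2 or any 1 of the sh-CLGN libraries. Other receptors than FGFR4 feed ERK, and which of them did so here was not measured.

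**Figure D3:**
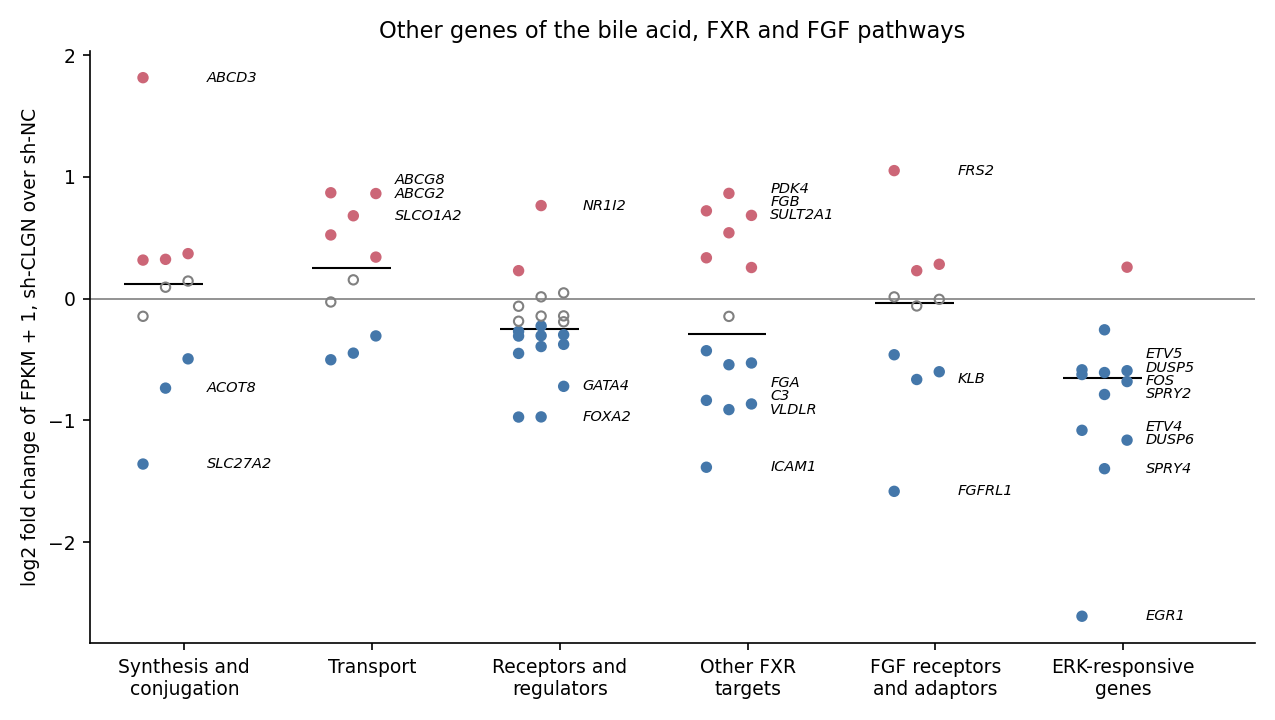
log2 fold change of FPKM + 1 (sh-CLGN over sh-NC) for each tested gene of 6 pathway lists that hold none of the 10 genes, red for higher and blue for lower at an adjusted p of at most 0.05, open grey for neither, with a bar at each median. The ERK-responsive genes lie below 0 except for 1, while synthesis, transport and FXR target genes lie on both sides.

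On chromosome 11, 17 tested genes lay within 1000000 bases of FGF19, of which 6 fell and 5 rose, with a median of -0.04. Among all tested genes 39.0% fell and 26.7% rose. Of the 5, AP003071.5 passed the filter only through sh-CLGN. LTO1 and CCND1, the nearest, were at 8.74 ± 0.741 and 4.71 ± 0.203 FPKM and at 126 ± 5.005 and 99.4 ± 1.80 FPKM (log2 fold changes -0.77 and -0.34 and limma adjusted p = 5.17e-05 and 0.000405). The 2 genes overlap each other on opposite strands, and the CCND1 call was lost after quantile normalization. CPT1A, the carnitine palmitoyltransferase of mitochondrial fatty acid entry, fell by 1.17 and the noncoding AP000808.1 rose by 1.18, both on the log2 scale. None of the 17 differed by as much as FGF19. But FGF19 was chosen with its difference known, and only 0.0688% of all tested genes lay lower, so this says little about the neighbours.

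**Figure D4:**
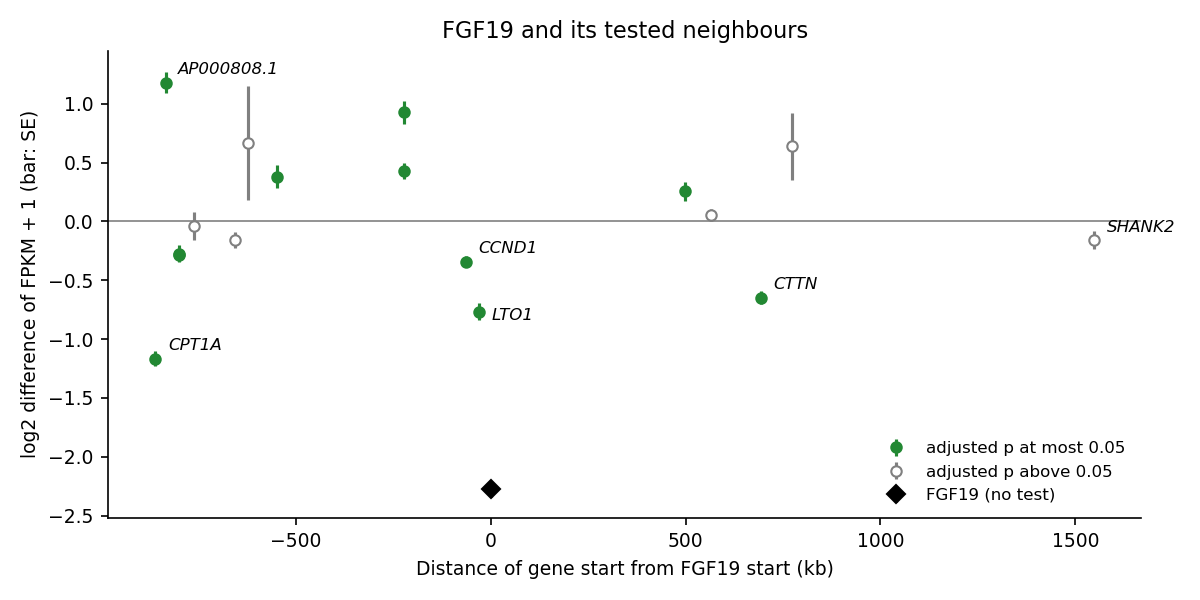
Difference of FPKM + 1 (log2, bar: SE) against the distance of each gene's start from the FGF19 start in kb, for FGF19 (black, no test) and its 17 tested neighbours, filled where the adjusted p was at most 0.05. The neighbours lie on both sides of 0 and all above FGF19.

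The 3 genes whose pattern over the 6 libraries was most like that of FGF19, by root mean square distance of centred log2(FPKM + 1), were CMTM6 (0.0798), LCT (0.0853) and CHAC1 (0.0907). CMTM6 was at 59.1, 60.8 and 67.2 FPKM in sh-NC and at 11.7, 13.1 and 10.5 FPKM in sh-CLGN. The likeness reflects mainly the step between the 2 groups, which every such gene shares with FGF19 by construction. Among the 10 genes themselves SLC51B was nearest to FGF19 (0.122), followed by NR0B2 (0.504) and FGFR4 (0.625).

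The labelled cell type was checked against its markers. All 12 hepatocyte markers passed the filter, with AFP at 2670 ± 105 and 3782 FPKM and ALB at 2007 ± 70.9 and 1076 FPKM, though TAT and CPS1 were near 1 FPKM or below, and 4 rose and 6 fell. Since FGF19 is otherwise an ileal hormone, enterocyte markers were read too: 7 of 11 were tested, 2 rose and 4 fell. Their summed level ran from 133 to 153 FPKM in the control libraries but from 102 to 112 FPKM with sh-CLGN. CDX2, 1 of the 4, fell from 38.9 ± 3.76 to 15.5 FPKM. The others were LCT, from 9.43 to 1.13 FPKM, ALPI, from 2.83 to 0.546 FPKM, and ANPEP, from 60.7 to 47.5 FPKM. LCT is also named above among the genes most like FGF19. The 2 that rose were APOA4, from 3.25 to 6.97 FPKM, and SI, from 0.632 to 1.86 FPKM. VIL1, at 28.7 and 31.1 FPKM, was not called, and the ileal uptake carrier SLC10A2 had 0 reads in every library. Among cholangiocyte markers, 4 of 7 were tested, 1 rose and 3 fell (sums 188 to 202 and 140 to 149 FPKM), with KRT7 at or near 0. Of the fibroblast and stellate markers all 5 tested of 9 rose, their sum going from 7.19 to 8.61 FPKM up to 48.6 to 50.01 FPKM through the collagens, while DCN, THY1 and ACTA2 stayed near 0. Of these 5, COL1A1, COL3A1 and LUM passed the filter only through sh-CLGN, the group where they are high, as did CPS1 and SI among the markers counted above. ALPI and CD14 passed it only through sh-NC. LCT met it only with help from sh-NC, where it is high. The 1 tested endothelial marker of 5, PECAM1, fell, and the 2 tested immune markers of 6, CD14 and LYZ, fell, while PTPRC was near 0 throughout. These lists moved with the same contrast, and their part in the values above was not tested. In bulk libraries fewer cells making a transcript and less of it per cell cannot be told apart.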

How the data were processed

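RNA sequencing libraries of Hep-G2 cells (3 sh-NC, 3 sh-CLGN) were analysed from the table of gene levels. The FPKM values were deposited by the authors, whose processing notes name HISAT2 2.0.5, featureCounts and GRCh38. Their roles, the annotation and strandedness are not given in the sources used here. The positions of all 58735 genes equalled GENCODE 29. FPKM multiplied by gene length fell on whole reads for 100% of values (tolerance 0.01 read), which gave reads and library totals of 14955816 to 16244639.

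The groups were compared by limma 3.58.1 (R 4.3.3, eBayes with trend) on log2(FPKM + 1) over the 13074 genes that reached 1 FPKM in 3 or more libraries, with p-values adjusted by Benjamini-Hochberg. This scale makes the changes of low genes look smaller. Calls used an adjusted p up to 0.05 and, where stated, a log2 fold change of 1 or more in size. The fit was also run on simulated data. These held neither the GC trend nor the library size difference between the groups, so that run tests the code and not the calls reported here. Of the 13074 genes, 562 passed the filter through sh-CLGN alone, 549 of them called higher, and 162 through sh-NC alone, 150 of them called lower. The rest used Python 3.11.15 with scipy 1.17.1, pandas 2.3.3, numpy 2.4.6 and, for plots, matplotlib 3.10.9.

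The 10 genes, the pathway lists and the marker lists (hepatocyte, enterocyte, cholangiocyte, fibroblast and stellate, endothelial, immune) were chosen with earlier results of these data known. Named besides these were CLGN, the tested neighbours of FGF19 within 1000000 bases, the anchors KLB, RXRA, HNF4A, NR5A2, SLC10A1, CYP8B1, ABCC2, ABCC3, ABCB4, DUSP6 and EGR1, the 3 tested genes of each pathway list with the largest absolute fold change among those called, and the 3 genes most like FGF19. A gene that this rule names is not reported here. SPRED1, FGFR3, NR1I3, the single markers and the overlapping genes were named after their values were seen. Alternatives were a pseudocount of 0.1, no filter, voom on recovered reads, TPM, read totals, quantile normalization, GC correction, a replicate block and leaving out each library. No filter with a pseudocount of 0.1 was added after seeing the data. Same-numbered libraries correlated at -0.02, -0.05 and -0.15 in their deviations from group means, so the numbers were not treated as pairs. Intervals and floors cover counting error only.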

Additional observations from a re-analysis of the deposited data

Results flagged for a closer look

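ABCB11 lay outside the tested genes, because its level was below the filter, and still differed between the groups: 3, 4 and 7 reads in sh-NC against 31, 43 and 33 reads in sh-CLGN, a ratio of 6.80 at the deposited library sizes. It is listed because a signal above the control level appeared in values that the test did not use. Spread between libraries was not tested for outlying values, since each group held 3.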

How the results depend on the processing

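Across all tested genes, 821 met both thresholds, and the number rose to 1606 with a pseudocount of 0.1, 1722 with voom, 1426 with TPM and 2914 when the filter was dropped together with that pseudocount. Genes higher in sh-CLGN numbered 404, and 925, 989, 1002 and 2100 under those same settings. Genes lower in sh-CLGN numbered 417, and 681 with a pseudocount of 0.1, 733 with voom, 235 by read totals, 242 after GC correction and 814 under the joint setting. Higher genes made up 70.3% of calls with TPM, 72.0% by read totals and 66.4% after GC correction. Leaving out each library in turn gave 784 to 902 genes, 386 to 436 of them higher and 398 to 466 lower. The cause of these shifts was not tested, apart from the scaling of the libraries, which shifts the differences as given above. Between 3 and 5 members were past both thresholds over the 15 alternatives, with 3 to 4 once a library was left out. The receptors and regulators that were higher went from 2 to 4 after GC correction and 1 to 2 without each library, and those lower from 11 to 6 by read totals and 7 after GC correction. The ERK-responsive genes that were higher went from 1 to 0 without the filter, after GC correction and under the joint setting, and were 0 to 1 without each library. RXRA turned to 0.13 after GC correction and MRPL21 to 0.0050 after quantile normalization. The lists of synthesis, transport, FXR targets, FGF receptors and lower ERK-responsive genes stayed within 1.5 times their counts under all 15 alternatives. The replicate block gave 821 genes, 818 of them shared with the fit without it, changed the call of FADD and AP001271.1 among the named genes, and no library correlated best with the library of its own number. At this depth CYP7A1 was not detectable and ABCB11, SLC10A1 and CYP8B1 rested on a few reads.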
